A study of Homo sapiens with 16 samples.

Results

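The 4 RT-PCR libraries described here, of 16 libraries in the series, came from the short_1 minigene of EIF4G2 and from its counterpart short_1_alt, which carries the alternative allele of a single-nucleotide polymorphism within intron 17's 3′ splice site. They were chosen by their labels, with replicates 1 and 2 of each minigene, and every sequenced read that covered introns 15 to 18 exactly was scored at each of these 4 introns. The comparison asks what the allele does to intron 17 and to its neighbours, above all intron 18, when nothing downstream of exon 19 is present. The base change itself is not reported here.

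EIF4G2 encodes a translation initiation factor of the eIF4G family that lacks the binding site for the cap-binding protein. Both minigenes were genomic fragments from exon 15 to exon 19 with introns 15, 16, 17 and 18, cloned from the genomic DNA of the same human lymphoblastoid line behind the CMV promoter of a plasmid, so that neither held introns 19 and 20. They were transfected transiently into HEK293T cells, a line derived from human embryonic kidney, and the cells were collected a day later. The reference minigene short_1 and the alternative minigene short_1_alt differed by label in the allele only. Random-primed cDNA was amplified with a forward primer specific to the minigene and a reverse primer in exon 19 and sequenced on a nanopore device. Transcripts of a plasmid under a strong viral promoter, in 1 cell line, are therefore what was measured, and not the endogenous gene. Non-transfected HEK293T cells (NT) and cells carrying the long or long_alt minigene, which extend to exon 21, serve below as references and were amplified with a reverse primer in exon 21.

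An intron is removed when the spliceosome joins its 5′ splice site, bound early by the U1 snRNP, to its 3′ splice site, where U2AF recognises the polypyrimidine tract and the terminal AG. When a 3′ splice site is weakened, the intron can stay in the RNA, the upstream 5′ splice site can be joined to another 3′ splice site, or the exon downstream can be left out. Introns of 1 transcript are not removed at the same time, so that a read carrying some introns and lacking others shows which had been excised when the RNA was collected.

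The reference sequences of the 3′ splice sites are shown because the allele lies in that of intron 17. They are written 5′ to 3′ on the transcribed minus strand of GRCh38, with 20 intron bases and 3 exon bases and the terminal AG in capitals.
Intron 15, chr11:10800833-10800855: tgtcattgcttgttttttAGaca
Intron 16, chr11:10800645-10800667: gatacttgtgttcttcacAGgaa
Intron 17, chr11:10800346-10800368: tgttgtatatttctttcaAGgct
Intron 18, chr11:10799754-10799776: aggtggctttgtctcttcAGaaa
Among the first 17 of these 20 intron bases, 13 are pyrimidines in introns 15 and 17 and 11 in introns 16 and 18, so that the reference tract of intron 17 is no poorer in pyrimidines than that of intron 18.

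The 5′ splice sites are shown because reads that use them with another partner are counted below. They have 3 exon bases and 6 intron bases, with the first GT of the intron in capitals.
Intron 15, chr11:10800956-10800964: cagGTacag
Intron 16, chr11:10800725-10800733: actGTaagt
Intron 17, chr11:10800426-10800434: cagGTagga
Intron 18, chr11:10800084-10800092: cagGTaaga
Intron 17 (chr11:10800349-10800431) and intron 16 (chr11:10800648-10800730) are each 83 nt long, intron 15 (chr11:10800836-10800961) is 126 nt and intron 18 (chr11:10799757-10800089) is 333 nt. Exons 16, 17 and 18 between them are 105, 216 and 259 nt long. Intron 18 is thus the longest of the 4.

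The deposited files listed 35808 and 34817 reads for the 2 replicates of short_1 and 32920 and 24309 for those of short_1_alt. Reads over exactly introns 15 to 18 made up 93.6% to 93.9% of them. After reads with an undetermined intron were left out (2.11% to 2.53%), 32915 and 31943 spanning reads remained for short_1 and 30216 and 22185 for short_1_alt, and percentages below are of these unless another denominator is named. At this depth an unseen combination could have a share of up to 0.0135% in the smallest library (3 counts). Without molecular identifiers on the reads, such limits cover counting error only. Counting error was far smaller than the spread between replicates of 1 minigene, whose chi-square over its degrees of freedom was 126 for short_1 and 94.5 for short_1_alt, so that spread is the error given. In both minigenes replicate 2 had more retention of introns 15, 16, 17 and 18 than replicate 1. Shorter PCR products may be favoured by the amplification, and the part of this in the percentages was not tested.

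With 2 libraries against 2, the two-sided exact permutation test has 6 assignments and cannot give a p below 0.333, so no difference between the minigenes could pass 0.05 in this test, whatever its size. Each difference is therefore read against the ranges and SDs of the replicates. A difference is called non-overlapping when both short_1_alt libraries lay on the same side of both short_1 libraries. The main set held 14 comparisons, for which a raw p of 0.333 corresponds to an adjusted p of 0.519 by Benjamini-Hochberg and no adjusted p was lower (exact permutation).

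Intron 17, whose 3′ splice site carries the allele, was retained more often from short_1_alt. Its retention was 7.93% and 17.6% in the short_1 replicates and 22.5% and 33.5% in the short_1_alt replicates. The lowest short_1_alt value was above the highest short_1 value. The means were 12.8% ± 6.82 (SD, n = 2) and 28.0% ± 7.76, a 2.20-fold ratio and a difference of 15.2 percentage points (exact permutation p = 0.333). Without replicate 2 of short_1_alt the difference was 9.77 percentage points. Even with the alternative allele most transcripts had lost the intron, since 76.8% and 65.7% of short_1_alt reads had it excised through its annotated splice sites, against 91.0% and 81.5% for short_1.

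Intron 18, whose own splice sites do not hold the allele, was retained more often as well. The authors state that plasmid sequences were verified, and they were not checked here. Its retention was 63.2% and 70.9% for short_1 and 78.6% and 80.1% for short_1_alt, without overlap. The means of 67.1% ± 5.47 and 79.3% ± 1.10 differed by 12.3 percentage points (SD, n = 2, exact permutation p = 0.333). Intron 18 was the most retained of the 4 introns in each of the 4 libraries. Intron 18 had been excised from 35.9% and 28.2% of short_1 reads and from 20.8% and 19.3% of short_1_alt reads.

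The introns upstream of the allele differed by less than their replicates did. Intron 16 was retained in 5.92% and 14.3% of short_1 reads and 8.29% and 17.7% of short_1_alt reads, which overlap, with a mean difference of 2.90 percentage points (exact permutation p = 0.667). Intron 15 was retained in 2.83% and 8.77% of short_1 reads and 3.77% and 8.95% of short_1_alt reads, which overlap too, and the mean difference was 0.560 percentage points (exact permutation p = 0.667). Leaving out replicate 1 of short_1 turned these to -1.28 and -2.41 percentage points, and leaving out replicate 2 of short_1_alt to -1.81 and -2.03. Omitting replicate 1 left short_1 with its higher replicate only, and omitting replicate 2 left short_1_alt with its lower one. Within each replicate number both introns were retained more often in short_1_alt, but the numbers were not shown to pair the libraries. A difference between alleles at introns 15 and 16 was not detectable with these replicates taken as unpaired, whose SDs reached 6.66 percentage points.

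**Figure D1:**
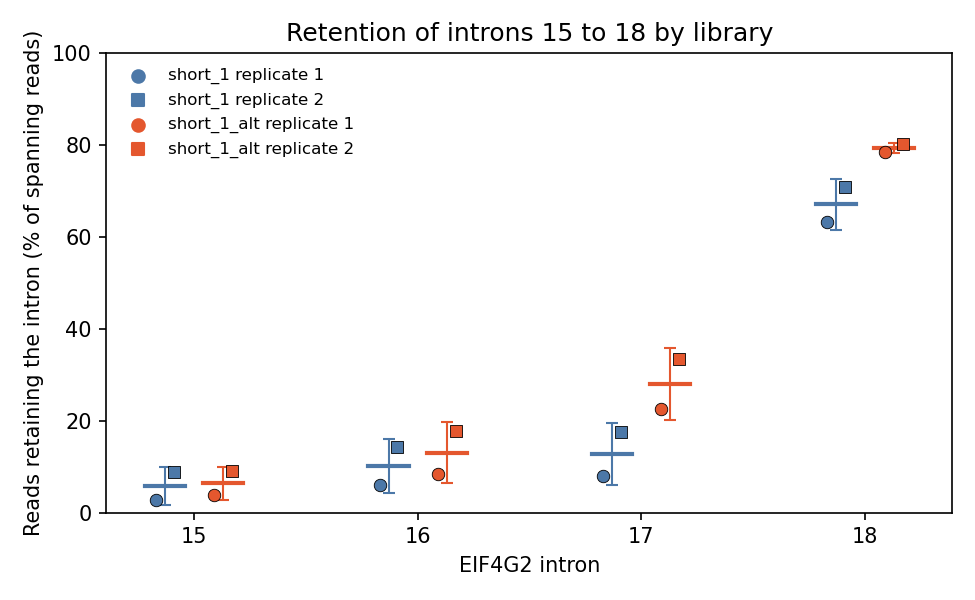
Retention of each of introns 15 to 18 (x axis), as the percentage of spanning reads (y axis), in the 2 replicates of short_1 (blue) and short_1_alt (orange). Points are libraries, bars the mean and whiskers 1 SD (n = 2). At introns 17 and 18 both short_1_alt points lie above both short_1 points, and at introns 15 and 16 the points overlap.

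For reference, the same introns were removed from nearly all endogenous transcripts, where NT cells retained intron 17 in 1.45% ± 0.106 and intron 18 in 2.22% ± 0.491 of spanning reads (SD, n = 2). The short_1 minigene was also sequenced as direct RNA, without PCR, in 1 library with 182 spanning reads. There intron 18 was retained in 70.9% (95% Wilson interval 63.9% to 77.0%), within the range of the short_1 amplicons, and intron 17 in 6.59% (3.81% to 11.2%), below both of them but with an interval that holds the lower. The series holds no direct RNA library of short_1_alt, so the difference between alleles rests on amplicons alone.

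The full combinations of excised and retained introns give the same difference read by read. With 4 introns there are 16 such combinations, and they held 97.8% to 98.7% of the spanning reads, the rest having at least 1 intron with a skipped splice site. Among all 42 combinations of statuses with at least 10 reads over the 4 libraries, skipped ones included, 45.2% did not overlap between the minigenes, 21.4% being higher and 23.8% lower in short_1_alt. Of the 16 combinations without skipping, 4 were higher, 3 lower and 9 overlapped, a share close to that background. No minimum of reads was applied to the 16, and 1 of the 4, introns 15 and 17, was below 10 reads. The background is not separate, since it holds the rest of the 16. What set a few of the 16 apart was the size of the difference, and not the absence of overlap.

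Fully spliced RNA, with introns 15 to 18 all excised, was less frequent from short_1_alt. It made up 34.8% and 27.1% of short_1 reads and 19.7% and 17.9% of short_1_alt reads. The groups did not overlap, and the means of 31.0% ± 5.48 and 18.8% ± 1.24 differed by -12.2 percentage points (SD, n = 2, exact permutation p = 0.333).

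RNA that retained introns 17 and 18 and had lost introns 15 and 16 was more frequent by a similar amount. It was 2.76% and 4.42% of short_1 reads (908 and 1411 reads) and 14.5% and 15.7% of short_1_alt reads (4388 and 3490 reads). The means were 3.59% ± 1.17 and 15.1% ± 0.855, a 4.22-fold ratio and a difference of 11.5 percentage points (SD, n = 2, exact permutation p = 0.333). Among the 16 combinations this was the largest positive difference, it was several times the SD of either minigene, and it stayed between 10.7 and 12.4 percentage points when any 1 of the 4 libraries was left out.

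The most frequent RNA of both minigenes, with intron 18 as the only intron retained, did not separate them. Its share was 53.8% and 51.4% in short_1 and 55.1% and 45.7% in short_1_alt, and the mean difference of -2.17 percentage points was smaller than the SD of 6.65 within short_1_alt (exact permutation p = 1). Without replicate 2 of short_1_alt this difference was 2.53 percentage points.

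RNA with intron 17 as its only retained intron stayed rare. It was at most 0.125% of short_1 reads (33 and 40 reads) and 0.520% and 0.627% of short_1_alt reads (157 and 139 reads). The ratio of the means, 5.08, was above that of the joint retention of introns 17 and 18, but the difference was 0.460 percentage points (exact permutation p = 0.333). In each library, far more reads had introns 17 and 18 both left in than intron 17 alone.

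Combinations in which intron 16 stayed in with introns 17 and 18 overlapped between the minigenes. Reads retaining introns 16 to 18 were 2.75% and 5.33% in short_1 and 4.27% and 8.92% in short_1_alt (exact permutation p = 0.667), and the mean difference of 2.56 percentage points was 0.232 without replicate 2 of short_1_alt and 1.27 without replicate 1 of short_1. Reads with all 4 introns were 2.11% and 7.39% in short_1 and 2.86% and 7.60% in short_1_alt (exact permutation p = 0.667). These long products followed the replicate number more than the minigene, with higher values in replicate 2 of both. The other non-overlapping combinations were small: the mean share of introns 15, 17 and 18 was 0.0745% in short_1 and 0.259% in short_1_alt, that of introns 16 and 17 was 0.108% and 0.0810%, that of introns 15 and 16 was 0.0465% and 0.0212%, and introns 15 and 17 had at most 3 reads in a library.

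**Figure D2:**
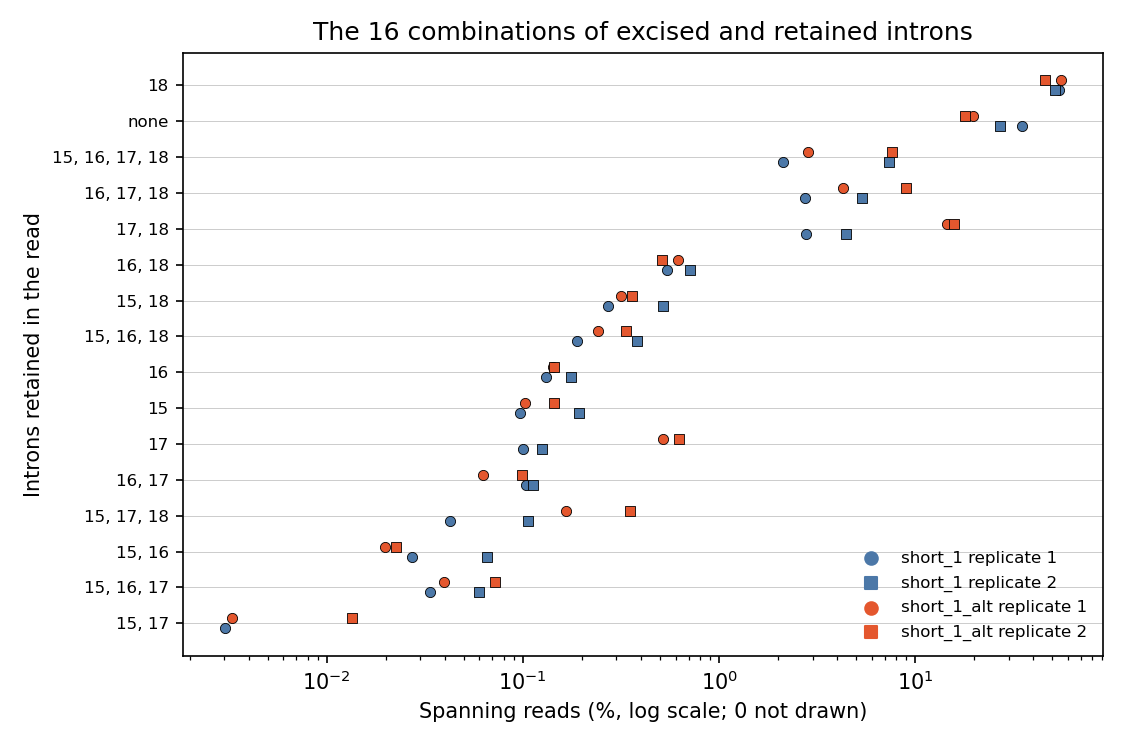
Share of spanning reads (x axis, log scale, in %) of each of the 16 combinations of excised and retained introns (y axis, named by the introns retained) in short_1 (blue) and short_1_alt (orange). Circles are replicate 1 and squares replicate 2, and a combination with 0 reads is not drawn. Reads with introns 17 and 18 retained lie at 2.76% and 4.42% for short_1 and 14.5% and 15.7% for short_1_alt, and reads with no intron retained are lower in short_1_alt.

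Because single reads carried both introns, the extra retention of intron 18 could be split by the state of intron 17. Reads retaining both introns, whatever introns 15 and 16 did, were 7.67% and 17.2% in short_1 and 21.9% and 32.7% in short_1_alt, a difference of 14.8 percentage points (exact permutation p = 0.333) that was 9.40 without replicate 2 of short_1_alt. Reads retaining intron 18 with intron 17 excised were 54.9% and 53.1% in short_1 and 56.4% and 47.0% in short_1_alt, which overlap. As shares of all reads, the higher retention of intron 18 in short_1_alt was therefore found in reads that retained intron 17 too.

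Within a given state of intron 17 the comparison was different. Among reads that had excised intron 17, intron 18 was retained in 62.8% ± 3.39 for short_1 and 72.5% ± 1.35 for short_1_alt, without overlap and with a difference of 9.68 percentage points (SD, n = 2, exact permutation p = 0.333). Among reads that had retained intron 17, intron 18 was retained in 97.4% ± 1.03 and 97.3% ± 0.356, which overlap (exact permutation p = 1). The sign of this last difference, -0.124 percentage points, changed with the library left out. Intron 18 was thus nearly always present where intron 17 was, with either allele. It also made up a larger share of the short_1_alt reads from which intron 17 had been removed. That denominator was smaller in short_1_alt (71.3% ± 7.87 of spanning reads against 86.2% ± 6.69 in short_1, SD, n = 2). As a share of all reads, intron 18 retained with intron 17 excised overlapped between the minigenes.

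**Figure D3:**
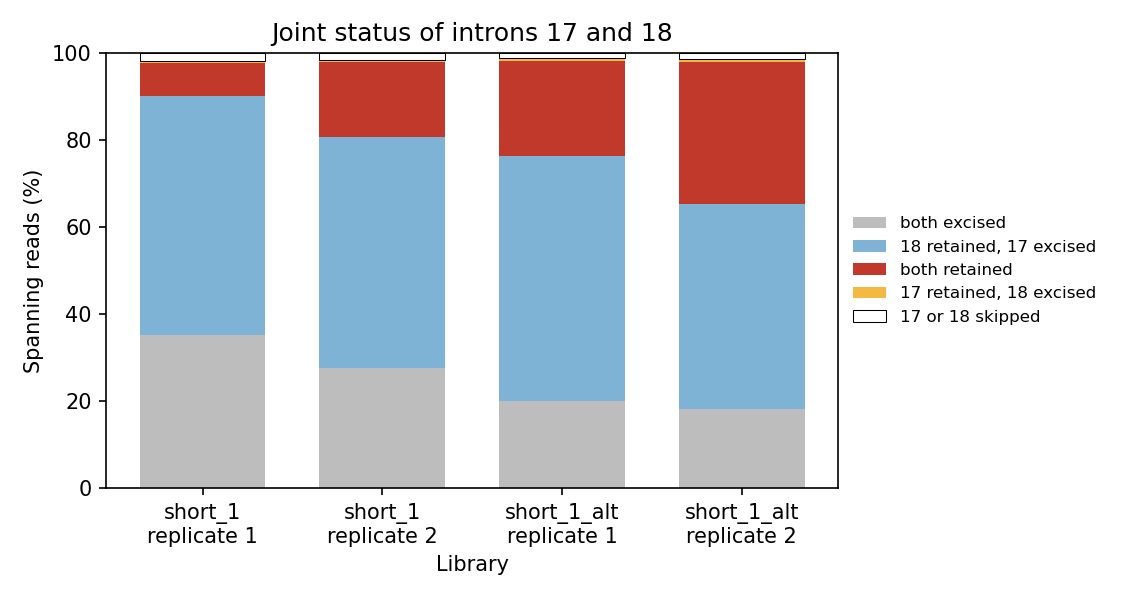
Joint status of introns 17 and 18 in each library (x axis), as stacked shares of spanning reads in % (y axis, from 0). Both excised (grey) is lower and both retained (red) higher in the short_1_alt libraries, intron 18 retained with intron 17 excised (blue) is 47.0% to 56.4% in all 4, and intron 17 retained with intron 18 excised (yellow) is a thin band.

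Read from intron 18, the allele went with intron 17 retention in both states. Intron 17 was retained in 0.874% ± 0.254 of short_1 reads that had excised intron 18 and in 3.60% ± 0.844 of such short_1_alt reads (SD, n = 2, exact permutation p = 0.333). Among reads that had retained intron 18, intron 17 was retained in 18.2% ± 8.61 and 34.3% ± 9.16 (SD, n = 2, exact permutation p = 0.333). Neither comparison overlapped, and the latter difference of 16.1 percentage points was 9.59 without replicate 2 of short_1_alt and 9.98 without replicate 1 of short_1.

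When exactly 1 of introns 17 and 18 was left in a read, it was almost always intron 18. Intron 17 was the one retained in 0.504% ± 0.0744 of such reads for short_1 and 1.40% ± 0.425 for short_1_alt (SD, n = 2), without overlap (exact permutation p = 0.333). The difference of 0.893 percentage points was 0.592 without replicate 2 of short_1_alt. Intron 18 was the one retained in the rest, in each library and with either allele.

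Retained introns lay next to each other at the 3′ end of the minigene. Of reads retaining intron 17, those with an unbroken block that ran to intron 18 (introns 17 and 18, 16 to 18 or 15 to 18) made up 96.1% to 97.5% in the 4 libraries. The minigenes differed in how these reads divided among the blocks. The block of introns 17 and 18 was 34.8% and 25.1% of the intron 17 reads of short_1 and 64.5% and 47.0% of those of short_1_alt, and the block of all 4 introns was 26.6% and 42.0% against 12.7% and 22.7%. These shares have the intron 17 reads as denominator, which were more numerous in short_1_alt. As a share of all spanning reads the block of all 4 introns was not lower there (2.11% and 7.39% against 2.86% and 7.60%).

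Intron 16 accompanied intron 17 in a smaller share of the intron 17 reads of short_1_alt, again with a larger denominator there. Among reads retaining intron 17, intron 16 was retained in 68.3% ± 7.32 for short_1 and 41.0% ± 12.5 for short_1_alt, a difference of -27.3 percentage points without overlap (SD, n = 2, exact permutation p = 0.333). Over all reads in which each of introns 16 and 17 was either excised or retained, both were retained in 5.07% and 13.1% for short_1 and 7.31% and 16.9% for short_1_alt, which overlap, so their joint retention was not lower. Among reads that had excised intron 17, intron 16 was retained in 1.32% ± 0.467 and 1.44% ± 0.144, which overlap (exact permutation p = 1). The odds ratio for retention of introns 16 and 17 in the same read was 171 and 165 in short_1 and 35.0 and 63.5 in short_1_alt, and that of introns 17 and 18 was 19.7 and 30.2 in short_1 and 12.4 and 15.6 in short_1_alt. These ratios describe reads of the same libraries and carry no test.

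**Figure D4:**
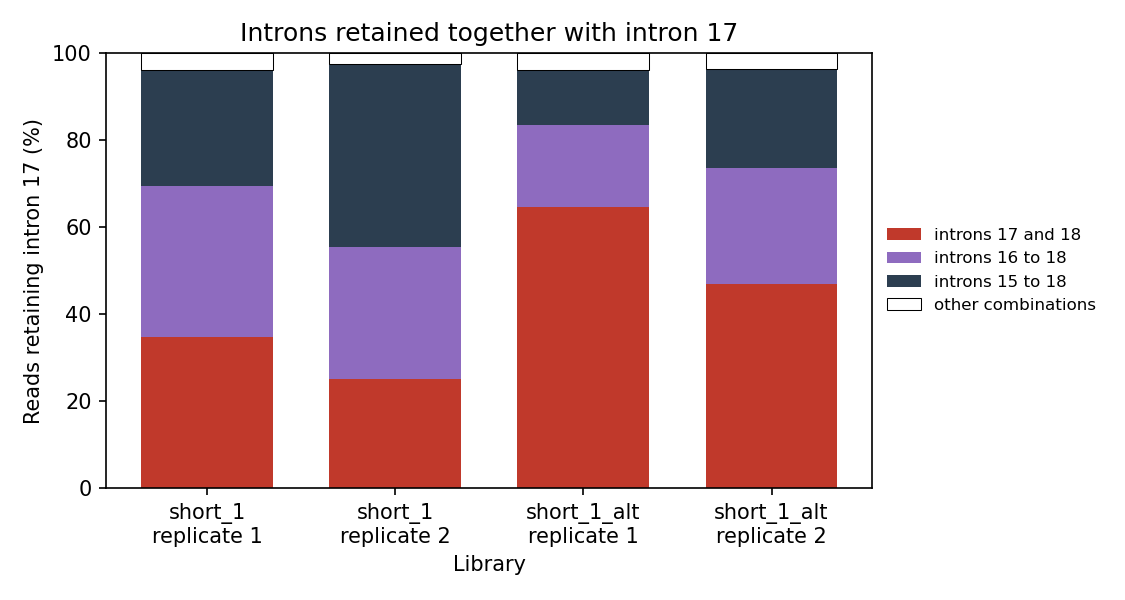
Composition of the reads that retained intron 17 in each library (x axis), in % of those reads (y axis, from 0), by the other introns retained. The block of introns 17 and 18 (red) takes 25.1% to 34.8% in short_1 and 47.0% to 64.5% in short_1_alt, and the block of all 4 introns (dark) is larger in replicate 2 of both minigenes.

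Counted per read, transcripts of short_1_alt kept more introns. Reads with 2 introns were 3.76% and 5.86% in short_1 and 15.6% and 16.8% in short_1_alt. Reads with 1 intron (54.8% and 52.6% against 56.3% and 47.1%) overlapped. The mean number of introns per read was 0.957 ± 0.224 in short_1 and 1.27 ± 0.192 in short_1_alt (SD, n = 2, exact permutation p = 0.333), a difference of 0.310 that was 0.152 without replicate 1 of short_1, 0.174 without replicate 2 of short_1_alt and 0.468 without replicate 2 of short_1. In sequence, the average read held 225.5 and 273.7 nt of intron in short_1 and 291.9 and 320.6 nt in short_1_alt.

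A changed 3′ splice site can also send the upstream exon to another acceptor. Reads that used the 5′ splice site of intron 17 with a 3′ splice site other than its own were 13 and 17 reads in short_1 (0.0395% and 0.0532%) and 30 and 38 reads in short_1_alt (0.0993% and 0.171%). The groups did not overlap, but the mean share was 0.135% ± 0.0509 in short_1_alt (SD, n = 2, exact permutation p = 0.333), against 28.0% for retention of the intron, and the difference of 0.0889 percentage points was 0.0529 without replicate 2 of short_1_alt. Retention was therefore the far more frequent state of an intron 17 that had not been spliced normally.

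Skipping of splice sites was rarer in total from short_1_alt. Reads with any skipped intron were 2.06% ± 0.170 in short_1 and 1.39% ± 0.0879 in short_1_alt (SD, n = 2, exact permutation p = 0.333), without overlap. Exon 17 was left out, with exon 16 joined to exon 18, in 0.706% ± 0.162 and 0.333% ± 0.0775 (SD, n = 2, exact permutation p = 0.333). Reads that joined the 3′ splice site of intron 18 to a donor other than its own were 0.668% ± 0.112 and 0.450% ± 0.0273 (SD, n = 2, exact permutation p = 0.333). The difference of -0.218 percentage points was -0.139 without replicate 1 of short_1. These shares are of all spanning reads, and reads using this 3′ splice site were fewer in short_1_alt. Such reads numbered 246 and 188 in short_1, beside 11814 and 9014 with intron 18 excised. In short_1_alt they numbered 130 and 104, beside 6286 and 4286. Their share among reads using this 3′ splice site was therefore not shown to be lower.

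A smaller set of reads covered exactly introns 16 to 18 and was not used above, with 1285 and 1217 reads for short_1 and 1243 and 833 for short_1_alt. In them intron 17 was retained in 7.08% and 12.2% for short_1 and 21.2% and 30.5% for short_1_alt, and intron 18 in 63.9% and 66.2% against 77.3% and 78.2%. Among those with intron 17 excised, intron 18 was retained in 61.1% and 61.6% against 71.9% and 69.9%. None of these 3 pairs overlapped, and the directions were those of the longer reads. They come from the same libraries and are not further replicates.

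The long minigenes, which hold introns 19 and 20 as well, show the allele at other levels of retention. Intron 17 was retained in 0.309% and 1.49% of long reads and 2.70% and 5.94% of long_alt reads, and intron 18 in 0.730% and 2.80% against 1.95% and 4.34%, on reads spanning introns 15 to 20. The difference between alleles in intron 17 was 15.2 percentage points in the short and 3.42 in the long minigenes, and in intron 18 it was 12.3 and 1.38. The differences of these differences, 11.8 and 10.9 percentage points, had exact permutation p of 0.444 and 0.278 over 36 assignments of the alleles, where 0.0556 is the smallest possible, and on the log odds scale they turned to -0.772 and -0.0935. Fully spliced reads over introns 15 to 18 differed by -12.2 percentage points between alleles in the short and by -5.60 in the long minigenes (exact permutation p of the difference 0.5). Reads with a skipped intron do not count as fully spliced. They averaged 15.3% in long and 17.5% in long_alt, beside 2.06% in short_1 and 1.39% in short_1_alt. With skipped introns counted as excised, the difference of differences went from -6.59 to -9.17 percentage points (exact permutation p = 0.333). Exchanging alleles within each architecture tests for no allele difference in either, so these p-values cannot decide whether the architectures differ. The direction also depended on the scale for introns 17 and 18. A larger effect of the allele in the short minigene was thus not shown.

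The architectures also differed in level among reads with exactly 1 of introns 17 and 18. Intron 17 was the one retained in 22.5% and 15.5% of such long reads (178 and 509 reads) and in 63.2% and 67.2% of such long_alt reads, a difference of 46.2 percentage points, beside 0.893 in the short minigenes. The difference of these differences was -45.3 percentage points (exact permutation p = 0.333 over 36 assignments). Whatever its size it could not pass 0.05 in this test, whose smallest possible p is 0.0556. With the long libraries as labelled, no exchange of alleles among the short libraries made it smaller in size. This p was therefore set by the long libraries alone and does not compare the architectures. On the log odds scale, which allows for short values near 0, the difference between alleles was 1.01 in the short minigenes and the difference of differences was -1.08 (exact permutation p = 0.444). The denominators differed, since reads retaining intron 18 with intron 17 excised averaged 54.0% in short_1, 51.7% in short_1_alt, 1.10% in long and 1.18% in long_alt. Among reads that had excised intron 18, the alleles differed by similar amounts in percentage points in both architectures. Intron 17 was retained there in 0.277% ± 0.0889 for long and 2.82% ± 1.10 for long_alt (SD, n = 2), beside 0.874% for short_1 and 3.60% for short_1_alt. As a ratio of these means the alleles differed more in the long minigenes. Whether the architectures differ in this measure was not tested. Intron 18 was the usual retained intron of the pair in short_1, short_1_alt and long, and intron 17 in long_alt. In NT cells intron 17 was the one retained in 19.4% ± 3.01 (SD, n = 2).

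**Figure D5:**
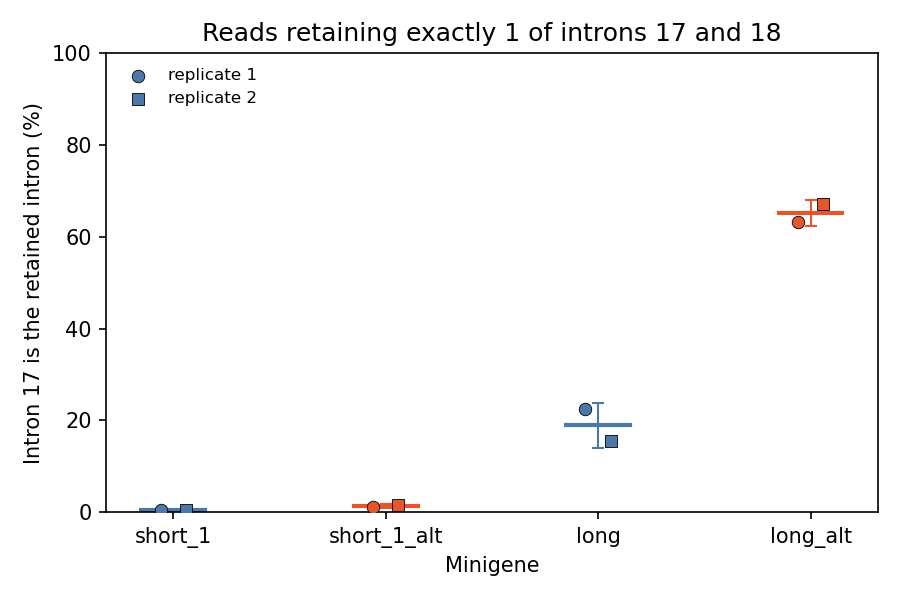
Among reads that retained exactly 1 of introns 17 and 18, the percentage in which it was intron 17 (y axis) for each minigene (x axis). Points are the 2 replicates, bars the mean and whiskers 1 SD (n = 2). short_1 and short_1_alt lie near 0, long at 15.5% and 22.5%, and long_alt at 63.2% and 67.2%.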

How the data were processed

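The authors basecalled nanopore reads of RT-PCR amplicons, mapped them on GRCh38 using minimap2 (spliced alignment) and retained those with a unique position. They deposited raw counts of reads per combination of introns and statuses, without normalization. A status is excised, retained, skipped (5′ splice site, 3′ splice site or both unused) or undetermined. Alignment to the genome rather than to the plasmid may affect calls near the ends of the insert. From these counts, reads over exactly introns 15 to 18 (15 to 20 for long, long_alt and NT) without an undetermined intron were kept, and skipped introns stayed in the denominator. Replicates had equal weight. Direct RNA libraries other than short_1 (5) were not used here. Groups were compared by two-sided exact permutation with Python 3.11.15 (SciPy 1.17.1 for intervals, matplotlib 3.10.9 for figures). The counting was tested on 4 simulated libraries, and the largest difference from the simulated percentages was 0. These libraries were drawn from the deposited counts and scored by the same rule. The test thus covers the counting code, and neither the numbering of introns nor the status calls. Any of introns 15 to 18, each of the 16 combinations, and skipped combinations by frequency could be named. The members, measures and comparisons were chosen with earlier results of these data known. Splice-site sequences are from the reference genome. Exon lengths are those of the annotation, and the ends of exons 15 and 19 in the plasmid were not checked.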

Additional observations from a re-analysis of the deposited data

Results flagged for a closer look

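Some reads of the short minigene libraries listed introns 19 and 20, which neither minigene holds. They numbered 62 and 26 in the replicates of short_1 and 51 and 31 in those of short_1_alt, and none entered the comparisons of the report. Reads over introns 15 to 18 that list further introns entered the alternative that allows them, where the difference for intron 18 was 12.3 percentage points. Of the reads over introns 15 to 20, 30 of 58 and 9 of 22 retained intron 18 in short_1 and 15 of 46 and 14 of 29 in short_1_alt. Intron 19 was excised in 19 of 58 and 12 of 22 of them in short_1 and in 30 of 46 and 14 of 29 in short_1_alt. It was retained in 1 read, of short_1 replicate 1, and was skipped or undetermined in the rest. The origin of these reads was not tested.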

How the results depend on the processing

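Of 306 alternative values over 27 results and 16 settings, 292 kept their direction and 14 reversed. Many of the 292 could not reverse. Leaving out 1 library cannot turn a non-overlapping difference between the minigenes. Counting skipped introns as excised leaves the retention of introns 17 and 18 as it was. The count is therefore no measure of stability. The settings changed the reads chosen, the handling of undetermined and skipped reads, the scale and the libraries, and the separate reads over introns 16 to 18 were chosen after seeing the data. Without short_1 replicate 1 the differences became -1.28 percentage points for retention of intron 16, -2.41 for intron 15 and -2.16 for all 4 introns. Without short_1_alt replicate 2 they became -1.81, -2.03 and -1.89, with 2.53 for only intron 18 retained and 2.39 for intron 18 retained with intron 17 excised. Intron 18 among reads retaining intron 17 became 0.0167 with undetermined reads kept, 0.128 without short_1_alt replicate 1, 0.606 without short_1 replicate 2 and 0.734 in reads over introns 16 to 18. On the log odds scale the differences between architectures were -0.0935 for intron 18 and -0.772 for intron 17. The cause of these reversals was not tested. The exact permutation test could not pass its threshold in any 2 against 2 comparison, so its p says nothing of stability.

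Leaving out 1 library in turn gave differences of 9.77 to 20.7 percentage points for intron 17, 8.42 to 16.2 for intron 18, 10.7 to 12.4 for only introns 17 and 18 and -16.1 to -8.31 for fully spliced reads. The ranges that crossed 0 were -1.81 to 7.61 for intron 16, -2.41 to 3.53 for intron 15, -6.88 to 2.53 for only intron 18, -2.16 to 3.11 for all 4 introns, -0.853 to 0.606 for intron 18 among reads retaining intron 17 and -7.03 to 2.39 for intron 18 retained with intron 17 excised. The difference between architectures was 6.35 for intron 17 without short_1_alt replicate 2, and 7.01 for intron 17, 7.04 for intron 18 and -2.72 for fully spliced reads without short_1 replicate 1. For fully spliced reads it was -10.5 without short_1 replicate 2 and -4.13 without long replicate 1.

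The replicate numbers were not shown to pair the libraries, since the 2 groups give 2 pairs only. Deviations of replicate 1 from the group means over the 16 combinations correlated between the minigenes with r = 0.635. With 1 library per minigene and number, the replicate block leaves each difference as it was by arithmetic (15.2 percentage points for intron 17, 12.3 for intron 18), so it is no check of stability and is not in the counts above. The smallest p that pairs allow is 0.5.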
